A study of Mus musculus with 23 samples.

Results

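Muscle contraction is switched on by calcium at the thin filament, and most of the proteins that do this come in a slow and a fast isoform encoded by different genes. A set of 10 such genes was followed here. They were the slow and fast forms of troponin C (Tnnc1, Tnnc2), troponin I (Tnni1, Tnni2) and troponin T (Tnnt1, Tnnt3), and of alpha-tropomyosin (Tpm3, Tpm1). The sarcomeric alpha-actinins (Actn2, Actn3) completed the set. All members were chosen by gene symbol, with earlier results of these data known, and all 10 were found among the 14500 genes of the deposited table. All 10 also passed the filter for testing, an FPKM (fragments per kilobase of exon and sequencing depth) of at least 1 in at least 2 libraries, which 12820 genes met.

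Paired-end RNA sequencing covered whole tibialis anterior, a leg muscle, of female C57BL/6 mice with free access to food. The 23 libraries cover 2 genotypes, 2 treatments and 2 times of day. RE-RE mice are homozygous for Bmal1 stopFL, a form of the clock gene Bmal1 held silent by a stop cassette, and carry a copy each of Syt10-Cre and Hsa-Cre, which remove the cassette. Hsa-Cre acts in skeletal muscle fibres and Syt10-Cre in neurons that include the central clock. Treated muscles had repeated intramuscular injections of 6-hydroxydopamine (6-OHDA, 50 mg/kg), which destroys sympathetic nerve endings, followed by a recovery period. Sham muscles were not injected at all, so the injections themselves and the toxin cannot be told apart. RE-RE 6-OHDA muscle was taken at 12 to 18 weeks of age, with 2 libraries at ZT0 (lights on) and 2 at ZT12 (lights off). RE-RE sham muscle was taken at 10 to 11 weeks, also with 2 libraries at each time. Wild-type 6-OHDA muscle was taken at 12 to 16 weeks, with 4 libraries at each time. Wild-type sham muscle was taken at 12 to 18 weeks, with 4 libraries at ZT0 and 3 at ZT12. Libraries are numbered as in the labels, through both times within a genotype and treatment. The labels do not say that libraries came from separate animals, so p-values measure the spread between these samples.

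In the thin filament, tropomyosin lies along actin and covers the sites that myosin binds. Troponin T holds the troponin complex to tropomyosin, troponin I keeps the filament switched off, and troponin C binds calcium and releases that block. Alpha-actinin crosslinks actin filaments at the Z-disc, the border of the sarcomere. Slow fibres carry the slow troponins and more Tpm3, fast fibres carry the fast troponins and Tpm1, Actn2 is present in all fibres and Actn3 in fast fibres. Actn2 is counted below with the slow members, as the counterpart of Actn3, and is not a marker of slow fibres. In developing and regenerating fibres of rodents, slow troponin genes are also active before the adult fibre type is set.

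Read totals, in units of 10 to the power 6 and rebuilt from the spacing of low FPKM values, were 21.1 to 36.1 per library, with a median of 28.1. RE-RE libraries were more variable than wild-type libraries. Their median residual SD was 0.451 log2 units, against 0.216 in wild-type groups, and it was larger in RE-RE for 91.7% of genes. The errors used here pool both genotypes, so for most genes those of RE-RE comparisons are too small and those within wild-type mice too large. The residual SD was larger in RE-RE for 7 of the 10 members, while Tnnt1 (0.550 in RE-RE, 0.869 in wild-type), Tpm3 (0.128 and 0.345) and Tnnc2 (0.268 and 0.444) went the other way. The 4 RE-RE sham libraries fell into 2 pairs. Libraries 1 and 3 correlated at 0.921 with each other and libraries 2 and 4 at 0.933, while no library correlated above 0.9032 with one of the other pair (Pearson r of log2 FPKM over tested genes, as a description). Of the RE-RE 6-OHDA libraries, library 2 was the least like the others, with a median r of 0.862. Results of RE-RE mice are also given without RE-RE sham libraries 1 and 3 and RE-RE 6-OHDA library 2. The correlations do not tell which sham pair was the unusual one. The median r with the other RE-RE sham libraries was 0.9032, 0.9032, 0.9018 and 0.894 for libraries 1 to 4. Leaving out sham libraries 2 and 4 together was not tried.

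Before any comparison, each fast isoform exceeded its slow counterpart in every library, except for troponin C. In wild-type sham muscle Tnnt3 averaged 12437 ± 780 FPKM (SD, n = 7) and Tnnt1 8.27 ± 5.97 FPKM. Tnni2 averaged 4956 ± 660 FPKM there and Tnni1 2.28 ± 1.34 FPKM. The 2 actinins lay closer together, with Actn2 at up to 39.4% of the pair in a treated wild-type library, and in wild-type sham muscle with 326 ± 106 FPKM for Actn2 and 2920 ± 318 FPKM for Actn3. This is the pattern of a fast muscle, as the tibialis anterior is known to be. In bulk tissue a smaller share of fibres of a type and less RNA per fibre cannot be told apart.

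Fast troponin C, which fast fibres are known to express strongly, could not be measured in this table. Tnnc2 (chr2:164777161-164779967, ENSMUSG00000017300, minus strand, GRCm38) was listed at 1.04 to 2.70 FPKM over all libraries. That corresponds to 19 to 59 recovered reads per library, against at least 89675 for Tnni2 and at least 271318 for Tnnt3. In the GENCODE M21 annotation 592 of its 800 exon bases, or 74.0%, also lie in an exon of Ube2c, a ubiquitin-conjugating enzyme gene on the opposite strand. No exon base of the other 9 members lies in an exon of another gene. The strand setting and the treatment of reads that fall in both genes are not given in the sources used here, and their part in the low value was not tested. Ube2c itself was listed at 1.04 to 3.28 FPKM, near the level of Tnnc2 and far below that of the fast troponins. Values of Tnnc2 are given below for completeness, and no ratio of slow to fast troponin C is drawn from them.

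**Figure D1:**
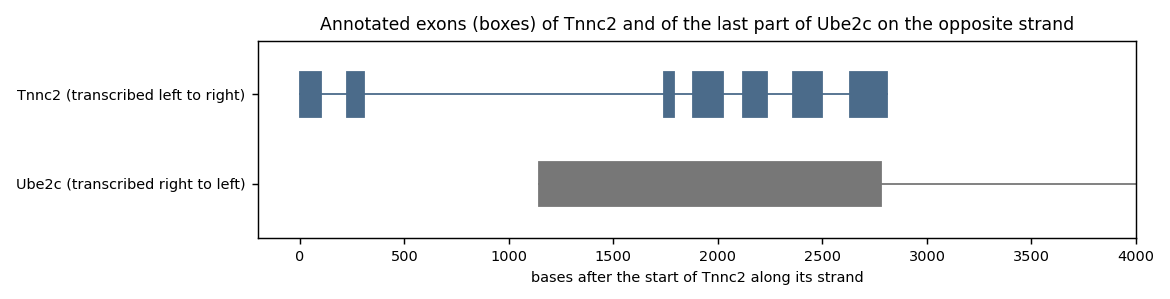
Annotated exons of Tnnc2 and the final exon of Ube2c, which is transcribed in the opposite direction, by distance in bases from the start of Tnnc2. The Ube2c exon covers the last 5 exons of Tnnc2 but for the end of the final one, 592 of 800 exon bases in all.

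The stretches just before the RefSeq starts of the 3 slow troponin genes are shown because these genes moved together, and that of Actn2 because it holds a different motif. They come from RefSeq promoters of GRCm38.p6, printed 5′ to 3′ on the gene's strand, and each ends at its start or where an annotated exon of the gene begins, after 221 to 250 bases. Those of Tnnc1 and Actn2 lie outside the annotated gene, and those of Tnni1 and Tnnt1 lie within it, between exons, since GENCODE M21 has transcripts that start further upstream. Capitals mark CANNTG, the E-box letters that myogenic factors such as MyoD are known to bind, in the slow troponin genes, and CACGTG, the palindromic E-box that clock factors are known to bind, in Actn2. Each motif reads the same on both strands at its fixed letters, and CACGTG is also a CANNTG.
Tnnc1, chr14:31208062-31208311, plus strand: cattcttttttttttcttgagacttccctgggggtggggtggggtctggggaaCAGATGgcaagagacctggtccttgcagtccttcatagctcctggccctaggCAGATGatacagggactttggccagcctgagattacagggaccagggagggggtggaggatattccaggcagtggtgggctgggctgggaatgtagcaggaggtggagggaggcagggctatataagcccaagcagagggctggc
Tnni1, chr1:135799171-135799401, plus strand: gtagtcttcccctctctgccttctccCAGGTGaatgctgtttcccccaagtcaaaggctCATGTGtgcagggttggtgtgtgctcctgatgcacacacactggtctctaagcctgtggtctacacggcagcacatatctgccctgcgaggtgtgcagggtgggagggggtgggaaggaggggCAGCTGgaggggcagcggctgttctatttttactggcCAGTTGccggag
Tnnt1, chr7:4516005-4516225, minus strand: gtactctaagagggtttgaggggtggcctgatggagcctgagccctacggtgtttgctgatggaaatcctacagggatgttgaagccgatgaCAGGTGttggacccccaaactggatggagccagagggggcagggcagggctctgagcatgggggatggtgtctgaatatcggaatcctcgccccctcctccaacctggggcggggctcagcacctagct
Actn2, chr13:12340761-12340982, minus strand: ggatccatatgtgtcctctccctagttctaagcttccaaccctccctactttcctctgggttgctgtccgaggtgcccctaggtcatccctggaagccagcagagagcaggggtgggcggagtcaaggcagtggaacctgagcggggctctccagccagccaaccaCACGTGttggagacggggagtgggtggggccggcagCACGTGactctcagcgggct

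The Tnnc1 stretch held 2 CANNTG, that of Tnni1 held 4 and that of Tnnt1 held 1. Of 32851 promoters in the same table, 66.2% held at least 1 in the 250 bases before the start, 31.8% held at least 2 and 3.84% at least 4. The Actn2 stretch held 2 CACGTG, while 6.02% of promoters held at least 1 and 0.429% at least 2. Gene and motif were picked because the match was there, so these shares do not measure how unusual it is. CACGTG was not counted in the other members, and other CANNTG of the Actn2 stretch were not marked. These matches describe the letters only, since binding was not measured. Promoter entries were found for 7 of the 10 members, and Tnni2, Tnnt3 and Actn3 had none. Tpm3, whose level moved with the slow troponins, had an entry, but its stretch is not shown, nor are those of Tpm1 and Tnnc2.

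In wild-type muscle 6-OHDA was followed by higher slow isoforms and lower fast isoforms. All 5 members counted as slow rose, by 1.52-fold for Actn2, which is not particular to slow fibres, to 4.68-fold for Tnni1. Of the 5 fast members 4 fell, by 1.69-fold for Tnnt3 to 2.04-fold for Actn3. With 9 of 10 members past the test, the background was 34.8% of the 12820 genes tested, with 18.8% called higher and 15.9% called lower (limma, Benjamini-Hochberg adjusted p under 0.05, mean of both times). The median log2 difference was 1.67 over the slow members and -0.82 over the fast members, against -0.04 over all genes tested. Of the 10 members, 5 had no overlap between the 8 treated and the 7 sham libraries, while 13.9% of genes tested had none (8.03% with 6-OHDA above and 5.87% with it below).

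Slow troponin C, Tnnc1 (chr14:31208312-31211729, ENSMUSG00000091898), which slow fibres share with the heart, had 12.7 FPKM in the lowest, 24.2 in the median and 28.1 in the highest of the 8 wild-type 6-OHDA libraries. In the 7 wild-type sham libraries it had 2.19, 7.32 and 20.4 FPKM. The groups overlapped, since 6-OHDA library 2 lay below sham libraries 2, 4 and 6, and 6-OHDA library 6 below sham libraries 2 and 4. The log2 difference was 1.67 ± 0.49 (SE, adjusted p = 0.0152 by limma), and without sham library 5 the adjusted p was 0.0512.

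Slow troponin I, Tnni1 (chr1:135779434-135810989, ENSMUSG00000026418), the inhibitory subunit of slow fibres, had a lowest, median and highest value of 6.21, 7.77 and 16.3 FPKM in 6-OHDA muscle, against 0.965, 1.72 and 4.46 FPKM in sham muscle. Every treated library was above every sham library, and libraries 1 and 3 at ZT0 were the highest. The log2 difference was 2.23 ± 0.41 (SE, adjusted p = 0.00158), the largest of the 10.

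Slow troponin T, Tnnt1 (chr7:4504570-4516382, ENSMUSG00000064179), which ties the complex to tropomyosin, had 14.6, 24.7 and 34.3 FPKM in 6-OHDA muscle, against 2.26, 6.08 and 19.2 FPKM in sham muscle. Sham library 2 was the only sham library within the range of the treated ones. Its log2 difference was 1.87 ± 0.38 (SE, adjusted p = 0.00217).

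Among wild-type sham muscles the slow troponins varied together. Sham library 2 was the highest of the 7 for Tnnc1, Tnni1, Tnnt1 and Tpm3, and sham library 3 was the lowest for all 4. Where in the muscle the tissue was taken is not given in the labels, and its part in this spread was not tested.

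Slow alpha-tropomyosin, Tpm3 (chr3:90072649-90100902, ENSMUSG00000027940), had 11.0, 14.4 and 18.0 FPKM in 6-OHDA muscle, against 5.21, 8.71 and 12.3 FPKM in sham muscle. The groups overlapped through sham library 2 alone, which lay above treated library 7. The log2 difference was 0.87 ± 0.15 (SE, adjusted p = 0.00143). Tpm3 also encodes cytoplasmic tropomyosins of other cells, which a gene-level value cannot separate from the muscle form.

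Actn2 (chr13:12269426-12340760, ENSMUSG00000052374), the actinin of all fibres, had 258, 526.3 and 596 FPKM in 6-OHDA muscle, against 183, 304 and 514 FPKM in sham muscle. Treated library 4 was the only treated library below the sham median, and sham library 7 lay within the range of the other 7 treated libraries. The log2 difference was 0.60 ± 0.19 (SE, adjusted p = 0.0237), the smallest rise of the 5. The adjusted p was 0.0539 without sham library 3, 0.0697 without sham library 6 and 0.0539 without treated library 1.

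Of the fast members 4 fell. Fast troponin I, Tnni2 (chr7:142441808-142444410, ENSMUSG00000031097), had a lowest, median and highest value of 1738, 2707 and 3668 FPKM in wild-type 6-OHDA libraries, against 4348, 4760 and 6247 FPKM in sham libraries. Fast troponin T, Tnnt3 (chr7:142498836-142516009, ENSMUSG00000061723), a close neighbour of Tnni2 on the chromosome, had 4972, 7593 and 9262 FPKM, against 11392, 12455 and 13594 FPKM in sham libraries. No treated library of either gene reached the lowest sham library. The log2 differences were -0.82 ± 0.22 (SE, adjusted p = 0.00805) for Tnni2 and -0.76 ± 0.23 (SE, adjusted p = 0.0167) for Tnnt3.

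Fast alpha-tropomyosin, Tpm1 (chr9:67022590-67049406, ENSMUSG00000032366), had 1013, 1510 and 2002 FPKM in 6-OHDA muscle, against 2451, 2573 and 3586 FPKM in sham muscle. Actn3 (chr19:4861216-4877909, ENSMUSG00000006457), the actinin of fast fibres, had 918, 1396 and 1932 FPKM in 6-OHDA muscle, against 2484, 3010 and 3357 FPKM in sham muscle. For both genes the 2 groups did not overlap, and treated library 1 was the lowest while library 4 was the highest. The log2 difference was -0.90 ± 0.21 (SE, adjusted p = 0.00505) for Tpm1 and -1.03 ± 0.22 (SE, adjusted p = 0.00263) for Actn3. Tnnc2, uncertain as described, had 1.04, 1.47 and 2.24 FPKM in 6-OHDA muscle, against 1.05, 1.94 and 2.70 FPKM in sham muscle, and a log2 difference of -0.31 ± 0.20 (SE, adjusted p = 0.236).

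**Figure D2:**
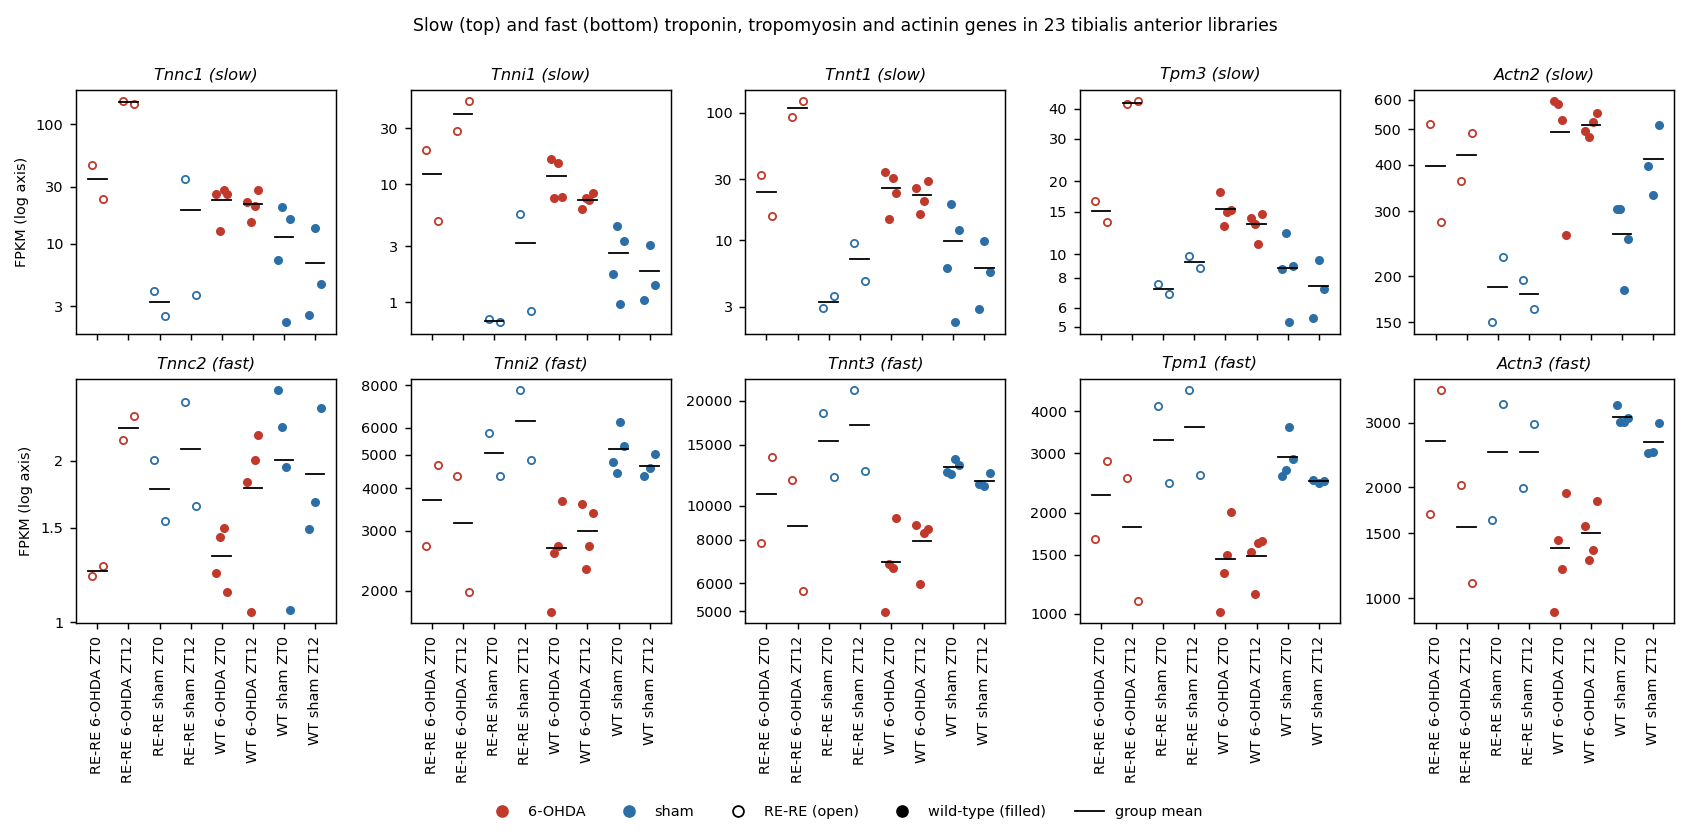
FPKM of the 10 genes in each of the 23 libraries (points, log axis) with the mean of each group of genotype, treatment and time (lines), slow isoforms above and fast isoforms below. In wild-type muscle Tnni1 lay above every sham library after 6-OHDA, while Tnni2, Tnnt3, Tpm1 and Actn3 lay below every sham library.

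The 5 rises passed the test under all 4 other scalings tried, and the 4 falls under 3 of them. Under quantile normalization, which gives all libraries the same distribution, the log2 difference was -0.16 for Tnni2, -0.26 for Tpm1, -0.31 for Actn3 and 0.11 for Tnnt3, and none was called. Scaling every library by its rebuilt read total moved the median of all genes tested to 0.29 in wild-type muscle, where the log2 differences themselves were smaller, with Tnni2 at -0.49, Tnnt3 at -0.42, Tpm1 at -0.56 and Actn3 at -0.70, all 4 called. Of all genes, 5111 were called higher and 467 lower under that scaling, against 2414 and 2044 in the deposited one. At ZT0 alone 8 members passed the test, and at ZT12 alone none did, where 2 genes of the whole table passed.

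A ratio of slow to fast isoform within a library does not change with a factor applied to the whole library, though it does with quantile normalization. The share of Tnni1 in Tnni1 and Tnni2 together had a median of 0.283% of summed FPKM in wild-type 6-OHDA muscle (0.172% to 0.932%), against 0.0362% in sham muscle (0.0154% to 0.1003%). For Tnnt1 in Tnnt1 and Tnnt3 it was 0.277% (0.214% to 0.685%) after 6-OHDA, against 0.0485% (0.0166% to 0.155%). Tpm3 made up 0.945% (0.675% to 1.75%) of Tpm3 and Tpm1 after 6-OHDA, against 0.309% (0.145% to 0.457%). In these 3 pairs the treated and sham libraries did not overlap, and how often ratios of other genes separate in this way was not counted. Actn2 made up 27.6% (11.8% to 39.4%) of the 2 actinins after 6-OHDA, against 9.16% (5.72% to 14.7%), and here treated library 4 lay within the sham range. On the log2 scale the slow to fast ratio was higher after 6-OHDA by 3.05 for troponin I, 2.63 for troponin T, 1.76 for tropomyosin and 1.63 for actinin, as a description.

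**Figure D3:**
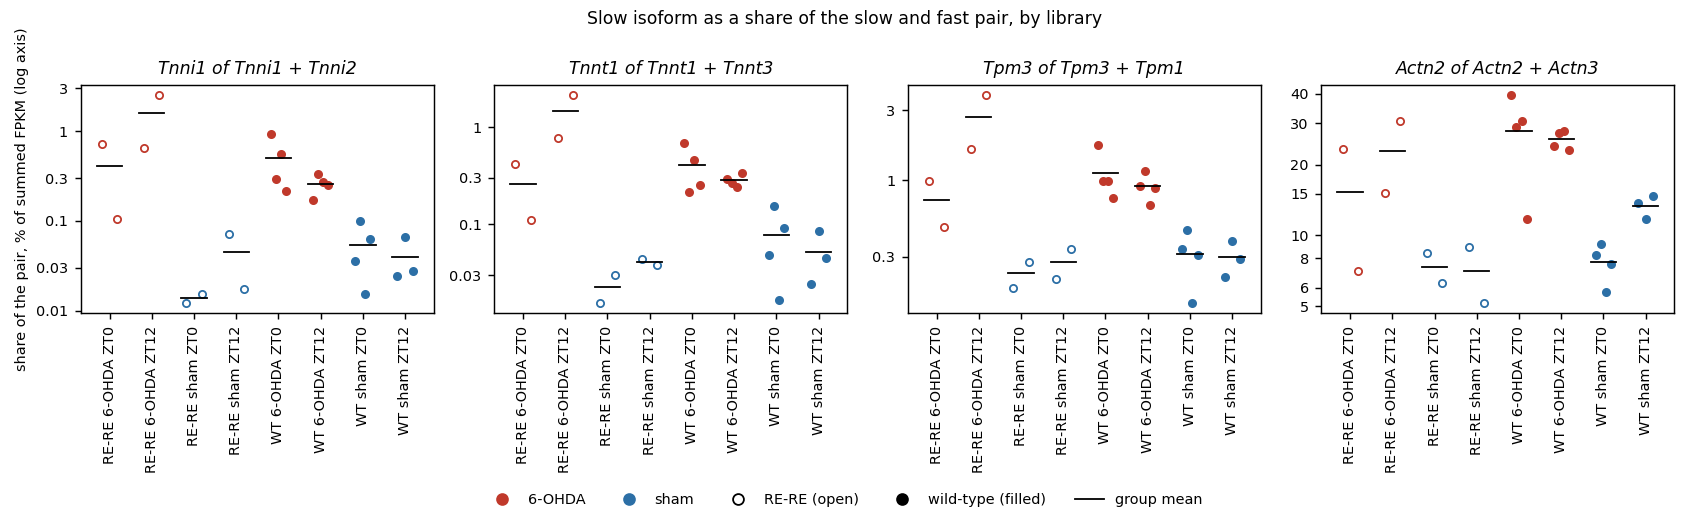
Slow isoform as a percent of the summed FPKM of its slow and fast pair in each library (points, log axis) with group means (lines). In both genotypes the shares of Tnni1, Tnnt1 and Tpm3 after 6-OHDA lay above all sham libraries of the same genotype, while the Actn2 shares overlapped.

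In RE-RE muscle the slow isoforms rose after 6-OHDA and, of the fast isoforms, Tpm1 alone passed the test. The 6 of 10 members called compare with a background of 26.9% of genes tested, with 11.9% higher and 15% lower. RE-RE 6-OHDA mice were 12 to 18 weeks old and RE-RE sham mice 10 to 11. With age in the limma model Tpm3 alone was called (1.67, adjusted p = 0.0424) among 3 genes in all, and no member was called with array weights or at ZT0 alone, where 0 and 3 genes were and 2314 and 1558 genes had an unadjusted p under 0.05. The median log2 difference was 3.39 over the slow members, -0.76 over the fast members and -0.02 over all genes tested.

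Tnnc1 had 45.4 and 23.8 FPKM at ZT0 and 157 and 149 FPKM at ZT12 in the RE-RE 6-OHDA libraries, against 4.01 and 2.50 at ZT0 and 35.0 and 3.70 at ZT12 in the RE-RE sham libraries. Tnni1 had 19.5 and 4.86 FPKM at ZT0 and 28.3 and 51.0 at ZT12 after 6-OHDA, against 0.716, 0.675, 5.57 and 0.848 FPKM in sham libraries 1 to 4. Sham library 3 stood out for both genes and lay within the treated range. The log2 differences were 3.56 ± 0.67 (SE, adjusted p = 0.00890) for Tnnc1 and 3.95 ± 0.56 (SE, adjusted p = 0.00211) for Tnni1.

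Tnnt1 had 32.6, 15.4, 93.3 and 124 FPKM in RE-RE 6-OHDA libraries 1 to 4, against 2.91, 3.64, 9.52 and 4.79 FPKM in sham libraries 1 to 4. Tpm3 had 16.6, 13.6, 41.8 and 43.1 FPKM after 6-OHDA, against 7.55, 6.83, 9.81 and 8.78 FPKM in sham muscle. Actn2 had 516, 280, 361 and 487 FPKM after 6-OHDA, against 150, 225, 195 and 163 FPKM in sham muscle. For these 3 genes every treated library was above every sham library, and 4.62% of genes tested had no overlap between the 4 treated and 4 sham libraries (2.7% with 6-OHDA above and 1.92% with it below). The log2 differences were 3.39 ± 0.51 (SE, adjusted p = 0.00281) for Tnnt1, 1.63 ± 0.20 (SE, adjusted p = 0.00138) for Tpm3 and 1.14 ± 0.26 (SE, adjusted p = 0.0148) for Actn2.

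The fast isoforms of RE-RE muscle were uneven between libraries. Tnni2 had 2710, 4669, 4327 and 1987 FPKM in RE-RE 6-OHDA libraries 1 to 4, against 5795, 4348, 7720 and 4824 FPKM in sham libraries 1 to 4. Tnnt3 had 7845, 13772, 11874 and 5708 FPKM after 6-OHDA, against 18534, 12078, 21451 and 12604 FPKM in sham muscle. Both genes were lowest in treated libraries 1 and 4 and highest in sham libraries 1 and 3, and the groups overlapped. The log2 difference was -0.78 ± 0.29 (SE, adjusted p = 0.0545) for Tnni2 and -0.76 ± 0.31 (SE, adjusted p = 0.0701) for Tnnt3.

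Tpm1 followed the same order, with 1667, 2853, 2527 and 1091 FPKM in RE-RE 6-OHDA libraries 1 to 4, against 4136, 2454, 4616 and 2592 FPKM in sham libraries, and fell by 0.80 ± 0.29 on the log2 scale (SE, adjusted p = 0.0488). Actn3 had 1693, 3672, 2031 and 1102 FPKM after 6-OHDA, against 1631, 3372, 1998 and 2983 FPKM in sham muscle. It differed from the other fast genes in that sham libraries 1 and 3 were its lowest sham libraries, and its log2 difference was -0.31 ± 0.30 (SE, adjusted p = 0.419). Tnnc2 differed by -0.17 ± 0.27 (SE, adjusted p = 0.650). The 5 slow members passed under all 4 other scalings. Tpm1 kept its call under median-of-ratios scaling alone (adjusted p = 0.0475), Tnnt3 turned to 0.07 under quantile normalization, and Actn3 turned to 0.15 under quantile normalization and 0.08 under rebuilt totals.

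RE-RE 6-OHDA library 2 held slow and fast isoforms in an unusual combination. Its Tnni2, Tnnt3 and Tpm1 were the highest of the 4 treated libraries and within the sham range, and its Actn3 was the highest of all 23 libraries, while its Tnnc1, Tnnt1 and Tpm3 were each above at least 3 of the 4 sham libraries. Its summed FPKM of 9 macrophage markers was 17.9, the lowest of the 23 libraries, and that of 8 genes of developing fibres was 13.5, against 37.4 to 155 in the other 3 treated libraries. Without RE-RE sham libraries 1 and 3 and this library, the same 5 slow members were called, Tpm1 was not (-0.60, adjusted p = 0.191) and Actn3 was (-0.99, adjusted p = 0.0290). This set was chosen after the data were seen. Leaving out 1 library in turn left 3 to 8 members called, and Tnni1, Tnnt1 and Tpm3 were called each time. The lower count came without 6-OHDA library 1 or without 6-OHDA library 4, and the count was 4 without sham library 1 or 3. Of all genes, 33 and 28 were called without 6-OHDA library 1 or 4 and 257 and 172 without sham library 1 or 3, against 3446 with all libraries. With the spread taken from the 4 RE-RE groups alone, 1 member was called, Tnnt1 (adjusted p = 0.0385), and 2 genes in the whole table. The slow to fast ratio was higher after 6-OHDA by 4.73 log2 units for troponin I, 4.15 for troponin T, 2.43 for tropomyosin and 1.45 for actinin.

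**Figure D4:**
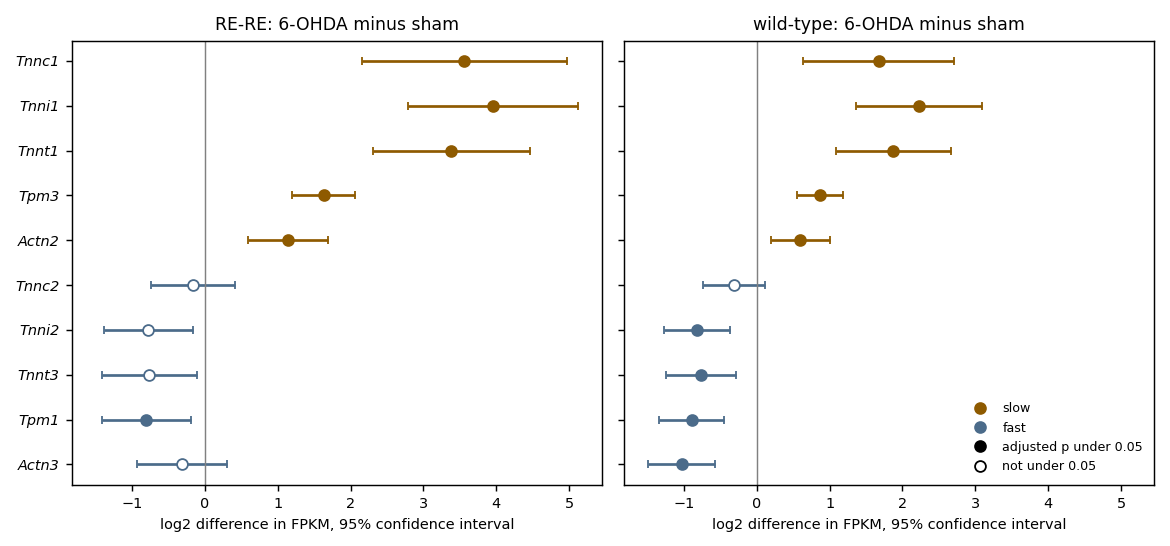
Log2 difference between 6-OHDA and sham muscle for each gene (points) with its 95% confidence interval (bars), in RE-RE mice on the left and wild-type mice on the right. Filled points passed the test, and the 5 slow genes are to the right of 0 in both genotypes, from 1.14 to 3.95 in RE-RE and from 0.60 to 2.23 in wild-type mice.

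Whether the response to 6-OHDA differed between the genotypes was asked by the difference of the 2 differences. None of the 10 members passed the test, where 9 of the 12820 genes did (0.0702%). At an unadjusted p under 0.05 stood 4 members and 1895 genes. These 4 were Tnnc1 (1.89 ± 0.83 log2 units larger in RE-RE, SE, adjusted p = 0.304), Tnni1 (1.73 ± 0.69, adjusted p = 0.274), Tnnt1 (1.51 ± 0.64, adjusted p = 0.286) and Tpm3 (0.76 ± 0.25, adjusted p = 0.225). The 95% confidence interval was 0.14 to 3.63 for Tnnc1 and 0.23 to 1.30 for Tpm3. For Tnnt3 it ran from -0.81 to 0.81, for Tnni2 from -0.72 to 0.81 and for Tpm1 from -0.67 to 0.85. For Actn3, whose fall was smaller in RE-RE muscle by 0.72 ± 0.37 log2 units (SE, adjusted p = 0.364), it ran from -0.05 to 1.49. For Tnnt3, Tnni2, Tpm1 and Actn3, genotype differences within these intervals could not be told from 0. The intervals of Tnnc1, Tnni1, Tnnt1 and Tpm3 lay above 0, but they are not adjusted for the number of genes tested.

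Between RE-RE and wild-type sham muscle 1 of the 10 members, Actn2, was called, where 9.91% of genes were. It had 150, 225, 195 and 163 FPKM in the 4 RE-RE sham libraries, against a lowest, median and highest value of 183, 304 and 514 FPKM in the 7 wild-type sham libraries. The groups overlapped through wild-type library 3, and RE-RE muscle was lower by 1.78-fold, a log2 difference of -0.83 ± 0.23 (SE, adjusted p = 0.0370). The call did not hold when RE-RE sham library 1 (adjusted p = 0.211), RE-RE sham library 3 (0.131), wild-type sham library 1 (0.0592), 2 (0.0715), 5 (0.0622) or 7 (0.0947) was left out. RE-RE sham mice were 10 to 11 weeks old and wild-type sham mice 12 to 18 weeks, and with age in the model the difference was -0.98 (adjusted p = 0.131). The other 9 members ranged from -0.64 for Tnni1 to 0.35 for Tnnt3.

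After 6-OHDA no member differed between genotypes past the test, where 29 genes did (0.226%), and 4 members and 1161 genes had an unadjusted p under 0.05. Tpm3 came nearest, with a log2 difference of 0.84 ± 0.18 between RE-RE and wild-type 6-OHDA muscle (SE, adjusted p = 0.0592). At ZT12 alone it was 1.68 (adjusted p = 0.00497) and at ZT0 alone -0.01 (adjusted p = 0.984). Tnnc1, Tnni1 and Tnnt1 were higher by 1.71, 1.09 and 1.07 log2 units, with adjusted p from 0.346 to 0.509.

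Time of day was compared as ZT12 against ZT0 in each genotype and treatment, and no member passed in any of the 4 comparisons. In wild-type sham muscle 83 genes passed (0.647%), and 1 member, Actn2, and 871 genes had an unadjusted p under 0.05. Actn2 had 303, 304, 183 and 252 FPKM at ZT0 and 397, 332 and 514 FPKM at ZT12. The times did not overlap, as for 5.74% of genes tested with ZT12 above, and the log2 difference was 0.67 ± 0.28 (SE, adjusted p = 0.592). In wild-type 6-OHDA muscle, where 86 genes passed (0.671%), Actn2 had 596, 584, 529 and 258 FPKM at ZT0 and 496, 476, 524 and 553 FPKM at ZT12. No member and 937 genes had an unadjusted p under 0.05 there, and Actn2 differed by 0.13 ± 0.26 log2 units (SE, adjusted p = 0.967). The time difference of Actn2 was smaller after 6-OHDA by 0.54 ± 0.39 log2 units (SE), and this change was not past the test (adjusted p = 0.9998), nor was that of any other member, where 1 gene passed (0.0078%) and 276 genes had an unadjusted p under 0.05.

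In RE-RE 6-OHDA muscle the slow troponins and Tpm3 were higher in both ZT12 libraries than in both ZT0 libraries, as were 13% of genes tested. Tpm3 differed by 1.49 ± 0.29 log2 units (SE, adjusted p = 0.0521), Tnnt1 by 2.26 ± 0.72 (adjusted p = 0.208), Tnnc1 by 2.22 ± 0.95 (adjusted p = 0.332) and Tnni1 by 1.96 ± 0.79 (adjusted p = 0.309). With 2 libraries at each time, 14 genes passed (0.109%), and 5 members and 1700 genes had an unadjusted p under 0.05. These 5 were the slow troponins, Tpm3 and the fast member Tnnc2, which is uncertain as described. Tnnc2 had 1.22 and 1.27 FPKM at ZT0 and 2.18 and 2.42 FPKM at ZT12, a log2 difference of 0.88 ± 0.39 (SE, adjusted p = 0.347). Without RE-RE 6-OHDA library 1, 1813 genes passed, among them Tpm3, Tnnt1 and Tnni1, but ZT0 was then library 2 alone, which was least like its group and was assumed to vary like the other groups. Without library 2 in its place no member passed. The ZT12 libraries came from mice of 15 and 18 weeks and the ZT0 libraries from mice of 16 and 12 weeks. In RE-RE sham muscle 7 genes passed (0.0546%) and no member had an unadjusted p under 0.05, against 659 genes, with Tnnc1 at 1.84 ± 0.95 and Tnni1 at 1.63 ± 0.79 log2 units, both carried by library 3.

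Ordered by mean log2 level over the 8 groups, RE-RE 6-OHDA muscle at ZT12 was highest for Tnnc1 (153 ± 5.64 FPKM, SD, n = 2), Tnni1 (39.7 ± 16.0), Tnnt1 (109 ± 21.6) and Tpm3 (42.4 ± 0.911), and each time its range was apart from that of the next group. For these 4 genes the other 3 groups of 6-OHDA muscle came next. RE-RE sham muscle at ZT0 was lowest for Tnnc1 (3.26 ± 1.07 FPKM), Tnni1 (0.695 ± 0.0286) and Tnnt1 (3.27 ± 0.517). Most other neighbours in these orders overlapped in range. Actn2 ran from 512 ± 33.3 FPKM in wild-type 6-OHDA muscle at ZT12 (n = 4) to 179 ± 22.7 FPKM in RE-RE sham muscle at ZT12 (n = 2), with every pair of neighbours overlapping. For Tnni2, Tnnt3 and Tpm1 the 4 sham groups held the top 4 places and the 4 treated groups the bottom 4. For Actn3 wild-type sham muscle was highest and wild-type 6-OHDA muscle lowest at both times, with all RE-RE groups between.

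Library by library, the slow troponins and Tpm3 formed a tight group. Over the 23 libraries Pearson's r of log2 FPKM was 0.944 between Tnnc1 and Tnni1, 0.963 between Tnni1 and Tnnt1, and 0.955 between Tnnt1 and Tpm3, as a description of libraries that share treatment and scaling. After the mean of each of the 8 groups was taken out, these values were 0.883, 0.837 and 0.906. The lowest value within this group of genes was then 0.708, between Tnni1 and Tpm3. Among the fast members r was 0.974 between Tnni2 and Tnnt3 and 0.984 between Tnnt3 and Tpm1, and 0.956 and 0.972 after the group means were taken out. The actinins stood off from both groups. Actn2 correlated at 0.448 with Tnnc1 and 0.643 with Tnni1, and at -0.829 with Tpm1, and at 0.187, 0.465 and -0.629 after the group means were taken out. Actn3 correlated at 0.735 with Tnnt3 and 0.728 with Tpm1, and at 0.444 and 0.368 after the group means were taken out.

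The genes most like each member over the 23 libraries were taken from 8764 tested genes whose log2 FPKM averaged 1 or more. For Tnnc1 they were Myl2, the slow regulatory myosin light chain (r = 0.950), Myh7, the slow myosin heavy chain (0.866), and Stambp (0.827). For Tnni1 they were Atp2a2, the slow-fibre calcium pump (0.920), Myh7 (0.916) and Bst2 (0.887). For Tnnt1 they were Myh7 (0.938), Myl2 (0.910) and Atp2a2 (0.90), and for Tpm3 Myl2 (0.876), Il4ra (0.861) and Bst2 (0.860). Actn2 was most like Hspb7, a small heat shock protein of muscle (0.976), Lmcd1 (0.942) and Rbfox2, a splicing factor (0.940). Tnni2 was most like Myoz1, a Z-disc protein of fast fibres (0.977), Gng5 (0.977) and Acyp2 (0.974). Tnnt3 was most like Tma7 (0.988), Pfn2 (0.982) and Mrps21 (0.982), and Tpm1 like Tma7 (0.986), Sh3bgr (0.986) and Trdn, a triad protein (0.986). Actn3 was most like Camk2a, a calcium-dependent kinase (0.978), Phkg1, a subunit of phosphorylase kinase (0.967), and Myh4, the fastest myosin heavy chain (0.959). Tnnc2 reached no more than 0.736, with Scand1.

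The slow and fast genes outside the 10 members moved in part with them. Of 7 other slow fibre genes, 4 rose in wild-type muscle after 6-OHDA and none fell, with a median log2 difference of 1.095. Of all genes tested, 18.8% rose and 15.9% fell. Myh7 averaged 11.0 ± 3.86 FPKM in 6-OHDA muscle (SD, n = 8) and 2.59 ± 2.48 FPKM in sham muscle (n = 7), a log2 difference of 2.78 ± 0.67 (SE, adjusted p = 0.00504). Atp2a2 rose by 1.49 ± 0.22, Casq2, a calsequestrin of slow and cardiac muscle, by 1.095 ± 0.287 and Myl2 by 1.59 ± 0.51 log2 units. Myl3, Pln and Myh7b did not pass. In RE-RE muscle 3 of the 7 rose, Myh7, Atp2a2 and Myl2, and none fell, where 11.9% of all genes tested rose and 15% fell.

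Of 9 other fast fibre genes, 3 fell and 2 rose in wild-type muscle, with a median of -0.36. Of all genes tested, 15.9% fell and 18.8% rose, so the rises were near that share. Pvalb, a calcium buffer of the fastest fibres, averaged 3773 ± 860 FPKM in 6-OHDA muscle and 8169 ± 1621 FPKM in sham muscle, a log2 difference of -1.11 ± 0.25 (SE, adjusted p = 0.00346). Myh4 fell by 0.96 ± 0.30 log2 units and Mybpc2, the fast myosin-binding protein C, by 0.66 ± 0.22. The 2 that rose were myosin heavy chains of less fast fibres than Myh4, Myh2 (1.12 ± 0.30, SE, adjusted p = 0.00859) and Myh1 (0.61 ± 0.20, SE, adjusted p = 0.0277). In RE-RE muscle 1 of the 9 passed, against 26.9% of all genes tested. It was Myh2, which rose by 1.43 ± 0.40 log2 units (SE, adjusted p = 0.0221).

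Elsewhere in the thin filament, 3 of 13 tested genes rose and 3 fell in wild-type muscle, with a median of -0.17, near the 18.8% and 15.9% of all genes. Tnnt2, the cardiac troponin T that embryonic skeletal muscle also expresses, averaged 1.99 ± 0.870 FPKM in 6-OHDA muscle and 0.617 ± 0.0543 FPKM in sham muscle, a log2 difference of 1.54 ± 0.29 (SE, adjusted p = 0.00163). Actc1, the cardiac actin, rose by 1.24 ± 0.30 and Lmod2, an actin nucleator at the filament end, by 0.60 ± 0.17 log2 units. Tmod4, a cap of the filament's pointed end, fell by 0.77 ± 0.18, and the capping protein subunits Capza2 and Capzb also fell. Acta1, the main skeletal actin, had a log2 difference of -0.17 ± 0.26 (SE, adjusted p = 0.627), and Tpm2, the beta-tropomyosin, -0.25 ± 0.16 (SE, adjusted p = 0.210). In RE-RE muscle 2 of the 13 rose, Tnnt2 and Lmod2, and 4 fell, where 11.9% of all genes tested rose and 15% fell.

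At the Z-disc, 3 of 16 other genes rose and 3 fell in wild-type muscle, with a median of 0.08, again near those shares. Actn4 rose by 0.71 ± 0.19 (SE, adjusted p = 0.00987) and Actn1 by 0.77 ± 0.28 log2 units (SE, adjusted p = 0.0409). Both encode non-sarcomeric actinins of most cell types. Myoz2, the slow-fibre myozenin, rose by 0.97 ± 0.26 log2 units, while Myoz1, its counterpart in fast fibres, fell by 0.77 ± 0.18. Tcap and Pdlim7 also fell. In RE-RE muscle 4 of the 16 rose, among them Myoz2, Actn1 and Actn4, and 1 fell, Myot. Of all genes tested there, 11.9% rose and 15% fell.

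**Figure D5:**
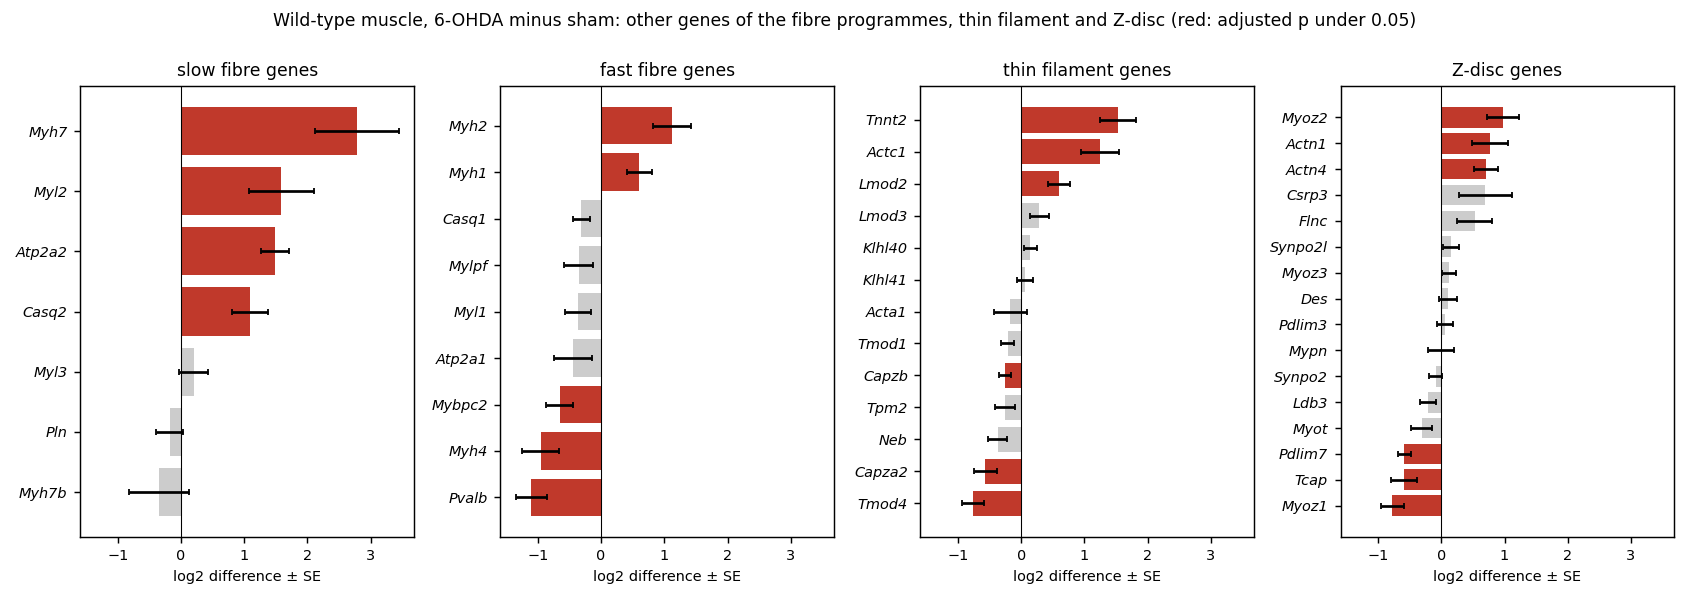
Log2 difference between 6-OHDA and sham muscle of wild-type mice (bars) with its SE (lines) for the other slow fibre, fast fibre, thin filament and Z-disc genes. Red bars passed the test, from Myh7 at 2.78 down to Pvalb at -1.11.

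Markers of other cells and of fibres that are being rebuilt moved with 6-OHDA as well. All 8 genes of developing or regenerating fibres rose in wild-type muscle, with a median of 2.09, where 18.8% of all genes tested rose. All 8 also rose in RE-RE muscle, with a median of 3.77, where 11.9% of all genes tested rose. Their summed FPKM was 34.7 to 180 in wild-type 6-OHDA muscle, against 12.9 to 26.4 in wild-type sham muscle, and 13.5 to 155 in RE-RE 6-OHDA muscle, against 6.45 to 11.0 in RE-RE sham muscle. Myh3, the embryonic myosin heavy chain, rose by 3.09 ± 0.55 log2 units in wild-type muscle (SE, adjusted p = 0.00144). Of this list Mymx, Mymk and Chrng were listed at 0 in at least 1 library. In RE-RE sham muscle they averaged 0.113, 0.0506 and 0.0139 FPKM, so their RE-RE differences start near 0. Set against wild-type muscle, the list had a median log2 difference of -1.955 in RE-RE sham muscle, with 4 of 8 called lower. After 6-OHDA it was -0.762, with none called.

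Macrophage markers summed to 142 to 508 FPKM in wild-type 6-OHDA muscle, against 23.9 to 64.5 in sham muscle, and 8 of 8 tested rose. In RE-RE muscle they summed to 17.9 to 309 FPKM after 6-OHDA, against 28.5 to 91.4, and none of 8 passed. Fibroblast markers had a median sum of 751 FPKM in wild-type 6-OHDA muscle, against 234 in sham muscle, and 6 of 6 rose there, while none of 6 passed in RE-RE muscle, with median sums of 719 and 312 FPKM. Of the remaining lists in wild-type muscle, 1 of 6 smooth muscle, 1 of 5 endothelial and 3 of 4 adipocyte markers rose, and 3 of 5 erythroid markers fell. The adipocyte sum was not higher, with a median of 56.6 FPKM after 6-OHDA, against 66.7 in sham muscle. Of all genes tested, 18.8% were called higher and 15.9% lower in wild-type muscle, near the smooth muscle and endothelial counts. In RE-RE muscle 11.9% were called higher and 15% lower. No marker of the macrophage or fibroblast lists was at 0 in any library. The part of these cells and of regeneration in the changes of the 10 members was not tested.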

How the data were processed

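Libraries were grouped by genotype, treatment and zeitgeber time from the labels. The authors deposited log2 FPKM values with 0.01 added, for 14500 genes. Per the submitters' processing notes, the build was GRCm38, and the tools named are HISAT2 2.1.0, edgeR 3.30.0, featureCounts 1.6.2, Trim Galore 0.5.0 and FastQC 0.11.8, and the labels' protocols give paired 150-base reads. Strand and multi-gene read settings are not given in the sources used here, which bears on Tnnc2.

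Differences were tested in R 4.3.3 by limma 3.58.1, fitting 1 mean to each group over all 23 libraries, a mean-variance trend and Benjamini-Hochberg adjustment over the 12820 genes that reached an FPKM of 1 in 2 or more libraries. The threshold was an adjusted p of 0.05, two-sided. Folds are on the log2(FPKM + 0.01) scale. A slow to fast ratio is the difference of 2 log2 values of a library, averaged over both times. Gene models came from GENCODE M21, with lengths for 14435 genes. Reads were rebuilt by dividing low values by what 1 read is worth; 86.6% to 94.8% of low values per library came out whole within 0.1 read. They served for depth and 1 alternative scaling, and cover counting error only. Figures were drawn by matplotlib 3.10.9 and tables made by pandas 2.3.3 with numpy 2.4.6, under Python 3.11.15. The scripts were tested on simulated data.

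All 10 members are named, up to 4 genes of each other list with the smallest p in wild-type muscle (further called genes, and Acta1 and Tpm2, were named after their values were seen), and the 3 genes most like each member. Members and lists were chosen with earlier results of these data known. Alternatives covered the pseudocount, filters, scaling, library weights, age, the groups fitted, time, the replicate number as a block and leaving out each library. A clock gene is not reported here.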

Additional observations from a re-analysis of the deposited data

Results flagged for a closer look

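Within wild-type 6-OHDA muscle, 3 values stood far from the rest of their group of 4 libraries, by the gap to the nearest library over the group's range. In log2 FPKM, Tnnc1 was 3.671 in library 2 at ZT0, against 4.715 to 4.809 in the other 3 libraries. Actn2 was 8.014 in library 4 at ZT0, against 9.046 to 9.22. Tnnt3 was 12.55 in library 6 at ZT12, against 13.03 to 13.11. Chance flags about 1 in 20 sets of values, and 45 sets were looked at, each a member or a slow to fast ratio in a group of 4 libraries. These sets share libraries and genes, so they are not independent. Groups with fewer libraries, among them all RE-RE groups, were not looked at. The library with the low Actn2 value was the 1 treated wild-type library whose Actn2 share of the actinin pair (11.8%) lay within the sham range, and without it Actn2 rose by 0.74 log2 units in wild-type muscle (adjusted p = 0.00320).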

How the results depend on the processing

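Of 799 alternative values for single members, 678 kept direction and side of the threshold, 70 lost the call, 24 gained one and 27 changed sign. In wild-type muscle the 9 members called after 6-OHDA were 5 under quantile normalization and 0 at ZT12 alone, and 8 to 9 with 1 library left out. In RE-RE muscle the 6 called were 0 with array weights and at ZT0 alone, 1 with age as a covariate and 1 with the compared groups alone, and 3 to 8 with 1 library left out. That RE-RE count was 8, with 3 falls among them, under log2(FPKM + 1) and the mean filter. It was 5, all rises, without a filter, under quantile normalization, nuclear sums or rebuilt totals, and at ZT12 alone. The 1 member differing between genotypes in sham muscle was 0 under quantile normalization, array weights, age, the compared groups alone and either time alone. It was also 0 without RE-RE sham libraries 1 and 3 and RE-RE 6-OHDA library 2 (the 3 libraries below, an alternative added after seeing the data). With 1 library left out it was 0 to 1. The 0 members differing between genotypes after 6-OHDA became 1 with log2(FPKM + 1), 2 with the compared groups alone and 1 at ZT12 alone, and 0 to 1 with 1 library left out. For time, the 0 in wild-type sham muscle became 1 with array weights, and the 0 in RE-RE 6-OHDA muscle became 1 with log2(FPKM + 1), the mean filter, quantile normalization or median-of-ratios scaling, and 0 to 3 with 1 library left out. Over all genes, the 4458 called in wild-type muscle were 7611 with array weights and 2 at ZT12 alone. The 3446 called in RE-RE muscle were 0 with array weights, 3 with age, 2 with the compared groups alone, 3 at ZT0 and 1665 at ZT12 alone, and 28 to 6309 with 1 library left out (28 and 33 without 6-OHDA libraries 4 and 1, 172 and 257 without sham libraries 3 and 1). Between genotypes in sham muscle 1271 were 760 with quantile normalization, 0 with array weights, 67 with age, 78 with the compared groups alone, 221 at ZT0, 9 at ZT12, 287 without the 3 libraries and 106 to 4816 with 1 library left out. After 6-OHDA 29 were 45 with nuclear sums, 47 with rebuilt totals, 11 with array weights, 11 at ZT0, 14 at ZT12, 45 without the 3 libraries and 15 to 761 with 1 library left out. The 9 genes whose 6-OHDA effect differed between genotypes were 4 with log2(FPKM + 1), no filter or median-of-ratios scaling, 1 with quantile normalization, 0 with the mean filter or array weights, 2 with age, 46 without the 3 libraries, 14 with the block and 1 to 1111 with 1 library left out. With array weights the time counts of 83, 86, 7 and 14 genes became 706, 1603, 0 and 0, in the order wild-type sham, wild-type 6-OHDA, RE-RE sham and RE-RE 6-OHDA, and with 1 library left out the counts reached 25, 34, 65 and 1813 at their farthest (without libraries 7, 5, 2 and 1). Signs turned for Tnnc2 in wild-type muscle (0.0196 with rebuilt totals, 0.00248 with array weights) and in RE-RE muscle (0.0896 with nuclear sums, 0.22 with rebuilt totals, 0.25 with age, 0.16 at ZT12, 0.071 without the 3 libraries), for Tnnt3 under quantile normalization (0.11 in wild-type, 0.0746 in RE-RE muscle) and for Actn3 in RE-RE muscle (0.15 quantile, 0.0798 rebuilt totals, 0.0884 at ZT0). Between genotypes in sham muscle, uncalled members turned: Tnni1 0.40 and Tnnt1 0.32 at ZT12, Tnnc1 0.0501 with age and 1.08 at ZT12, and Tpm3 -0.0350 with nuclear sums, -0.10 with rebuilt totals, -0.23 at ZT0 and -0.00404 without the 3 libraries; with 1 library left out Tnni1 ran from -1.31 to 0.0404, Tnnc1 from -0.98 to 0.64 and Tpm3 from -0.0422 to 0.173. After 6-OHDA, Tpm3 between genotypes was -0.0130 at ZT0. The cause of these changes was not tested. Fits at 1 time, without libraries or within 1 genotype hold fewer samples. With the replicate number as a block, 8 members were called in wild-type muscle (Actn2 had an adjusted p of 0.0533) and 5 in RE-RE muscle, and same-numbered libraries correlated at -0.12 to 0.07 in wild-type and 0.10 to 0.16 in RE-RE mice, where 2 libraries per group and time leave 2 independent values, so the numbers were not taken to pair libraries; the genotype comparison in sham muscle had 1 member called and the other blocked comparisons 0. Depth limits Tnnc2 (19 to 59 reads) most, and Tnni1 had 37 reads in its lowest library.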
